A study of Mus musculus with 24 samples.

Results

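Trimethylation of lysine 27 of histone H3 (H3K27me3) formed 1960 large domains in the mouse neuroblastoma line N1E115. A domain was a merged region of at least 50 kb on chromosomes 1 to 19 that held an H3K27me3 island in each of 4 libraries. The members were thus chosen by measured values, the extent of the H3K27me3 islands themselves, and their lengths, coverage and read densities are given as a description. Overlapping or touching islands of those libraries were merged into 24474 regions, of which 9830 had an island in all 4 libraries, so that the domains were 19.9% of the regions shared by all 4. Their summed length was 195.8 Mb, or 43.2% of the 453.5 Mb under any merged region. Another 16 regions of 50 kb or more lacked an island in at least 1 library and were left out. The other 7870 regions shared by all 4 libraries were shorter than 50 kb, with a median length of 17.2 kb.

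The cells were NOS1+ N1E115 neuroblasts, which carry neuronal nitric oxide synthase, and had been cultured for 3 days at 4% oxygen (hypoxia) or at 20% oxygen (normoxia). Chromatin immunoprecipitation with sequencing was done for H3K27me3, H3K36me3, H3K4me3, H3K27ac and H3K4me1, with 2 libraries per mark at 4% oxygen and 2 at 20% oxygen. All groups came from this 1 tumour line, and the labels do not tie the libraries to separate cultures. The p-values therefore measure only the spread between these libraries, which may be technical. For H3K27me3, both replicate 2 libraries shared a flow cell, per the file headers, while the replicate 1 libraries at 4% and 20% oxygen were on 2 others, so that in replicate 1 oxygen and flow cell cannot be told apart. The 4 H3K27me3 libraries held 7965858 and 9799332 reads in islands of chromosomes 1 to 19 at 4% oxygen, against 8616970 and 11964743 at 20% oxygen.

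H3K27me3 is laid down by Polycomb repressive complex 2, whose EZH1 or EZH2 subunit methylates histone H3 and whose EED subunit binds the finished mark, which lets the modification spread from a first site over neighbouring nucleosomes. The mark lies over genes that a cell type keeps silent, developmental regulators and gene clusters of other lineages among them. H3K36me3 is set in the bodies of transcribed genes and hinders Polycomb methylation of the same nucleosome, H3K4me3 marks promoters, H3K27ac occupies the same lysine as H3K27me3 at active promoters and enhancers, and H3K4me1 lies mainly at enhancers.

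The labelled cell type was compared with marker genes. All 12 genes of a noradrenergic neuroblast list, Phox2a, Hand2, Gata3, Th and Dbh among them, had H3K4me3 and H3K27ac at or near the gene in all 4 libraries, and none of them overlapped a domain. Of the markers of other cell types, domains overlapped Olig1 of 8 glial genes, Ptprc and Cd3e of 7 immune genes, Kdr of 5 endothelial genes, Krt8 and Krt18 of 4 epithelial genes, Alb and Myod1 of 5 liver and muscle genes, and none of 6 fibroblast genes. H3K27ac was present in all 4 libraries at or near Mbp of the glial list, Cd68 of the immune list, Pecam1 and Tek of the endothelial list, Pdgfrb of the fibroblast list and Ttr of the liver and muscle list, and at none of the epithelial list. H3K4me3 was in all 4 libraries at or near 2 glial, 2 immune, 1 endothelial, 3 fibroblast, 1 epithelial and 2 liver and muscle genes.

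Promoters inside the domains varied in CpG content, with a median of 6 CpG in 300 bp and quartiles of 3 and 13. The sequences of 6 of them, from the RefSeq table for GRCm38.p6, are printed to show promoters with few and with many CpG. They come from domains that hold the most members of a gene family, and these 6 were picked after their values were seen. Each window runs 5′ to 3′ on the gene's own strand from 250 bases before to 50 bases after the transcription start, and capitals mark every CG dinucleotide. CG reads the same on both strands, and 94.6% of the 32851 windows in the table hold at least 1.
Krt24: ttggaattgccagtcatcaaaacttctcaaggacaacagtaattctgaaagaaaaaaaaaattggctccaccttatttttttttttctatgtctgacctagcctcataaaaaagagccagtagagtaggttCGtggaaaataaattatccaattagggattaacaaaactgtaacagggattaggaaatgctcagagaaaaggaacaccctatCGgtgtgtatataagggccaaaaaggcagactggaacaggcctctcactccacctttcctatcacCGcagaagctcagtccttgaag
Olfr330: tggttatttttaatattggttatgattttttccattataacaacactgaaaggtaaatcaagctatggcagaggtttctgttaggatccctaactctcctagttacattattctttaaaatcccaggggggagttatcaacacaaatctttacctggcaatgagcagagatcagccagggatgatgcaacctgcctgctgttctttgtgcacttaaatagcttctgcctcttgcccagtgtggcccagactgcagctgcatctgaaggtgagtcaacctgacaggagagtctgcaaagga
Cyp2d11: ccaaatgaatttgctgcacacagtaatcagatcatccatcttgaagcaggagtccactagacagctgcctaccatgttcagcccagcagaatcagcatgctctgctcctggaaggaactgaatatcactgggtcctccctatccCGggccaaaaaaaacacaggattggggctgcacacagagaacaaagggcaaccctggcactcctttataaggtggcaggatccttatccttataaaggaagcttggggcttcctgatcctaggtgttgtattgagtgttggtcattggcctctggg
Hoxb4: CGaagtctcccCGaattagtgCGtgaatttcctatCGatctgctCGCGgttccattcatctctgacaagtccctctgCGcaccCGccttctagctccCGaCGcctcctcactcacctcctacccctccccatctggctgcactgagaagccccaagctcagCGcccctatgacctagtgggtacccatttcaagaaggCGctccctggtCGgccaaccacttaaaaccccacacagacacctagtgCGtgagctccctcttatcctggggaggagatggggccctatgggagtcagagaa
Kcna2: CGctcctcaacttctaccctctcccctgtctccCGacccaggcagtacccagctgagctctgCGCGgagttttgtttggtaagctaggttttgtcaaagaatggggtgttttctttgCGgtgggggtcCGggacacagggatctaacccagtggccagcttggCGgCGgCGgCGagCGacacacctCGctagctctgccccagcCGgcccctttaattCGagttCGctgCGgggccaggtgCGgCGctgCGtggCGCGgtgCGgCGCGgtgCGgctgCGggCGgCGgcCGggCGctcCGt
Wnt3a: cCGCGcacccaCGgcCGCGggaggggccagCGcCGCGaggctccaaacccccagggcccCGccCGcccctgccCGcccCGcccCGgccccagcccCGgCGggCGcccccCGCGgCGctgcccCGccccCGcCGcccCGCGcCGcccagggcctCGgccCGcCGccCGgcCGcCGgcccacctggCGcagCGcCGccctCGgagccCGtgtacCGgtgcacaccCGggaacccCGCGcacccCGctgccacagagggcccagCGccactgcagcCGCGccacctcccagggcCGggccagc

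Krt24, a type I keratin (chr11:99285213-99285512, minus strand), has 3 CpG in this window. Olfr330, an olfactory receptor gene (chr11:58534776-58535075, minus strand), has 0. Cyp2d11, a cytochrome P450 gene (chr15:82393973-82394272, minus strand), has 1. All bases within 500 bp of these 3 starts lay in H3K27me3 islands in each of the 4 libraries. Hoxb4, a homeobox gene of the anterior-posterior axis (chr11:96318017-96318316, plus strand), has 14 CpG. Of the 1001 bases around its start, islands covered 1001 and 0 bases in the 4% libraries, against 634 and 634 bases in the 20% libraries. Kcna2, which encodes a voltage-gated potassium channel subunit (chr3:107101317-107101616, plus strand), has 31 CpG. Its start was under islands for 134 bases in replicate 1 and 1001 bases in replicate 2, both at 4% and at 20% oxygen, so that it lay at an edge of the island in replicate 1. Wnt3a, a secreted Wnt ligand (chr11:59290702-59291001, minus strand), has 45 CpG and was under islands for all 1001 bases in each library. None of these 6 promoters had H3K4me3 in any library.

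The domains ranged up to 584.0 kb, with a median of 80.2 kb and quartiles of 60.8 and 117.7 kb. There were 666 of 100 kb or more, 129 of 200 kb or more and 29 of 300 kb or more. At the length threshold, which chose the members, 95 regions of 50 to under 52 kb lay inside and 111 regions of 48 to under 50 kb lay outside. The median covered share of those inside was 89.6% and 90.1% in the 4% libraries, against 79.2% and 94.6% in the 20% libraries. For those outside it was much alike, 90% and 92.2% at 4% oxygen, against 78.4% and 93.0% at 20% oxygen. The single regions named next do not stand for their side. Of 7 regions of exactly 50000 bp, the 3 listed first were on chromosomes 1, 1 and 4. Of these, the region over Slamf6, a lymphocyte receptor gene, was covered at 96.4% and 95.6% in the 4% libraries, against 85.2% and 100% in the 20% libraries. Just outside, 14 regions of 49800 bp included the region over Hecw2, a ubiquitin ligase gene, with 15.7% and 98.4% covered in the 4% libraries, against 12.9% and 82.7% in the 20% libraries. The other 2 regions listed first on that side were likewise covered less in replicate 1 than in replicate 2 at both oxygen levels.

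Islands covered 90.5% and 90.9% of the domain length in the 4% libraries, against 85.4% and 94.0% in the 20% libraries. The 4% values lay between the 20% values, so the groups overlapped. The mean was 90.7% ± 0.304 at 4% oxygen and 89.7% ± 6.07 at 20% oxygen (SD, n = 2 each), a difference of 1.06 percentage points, with p = 1 in the exact permutation test (two-sided), whose smallest possible p for 2 against 2 libraries is 0.33. Within replicate 1 the difference was 5.13 points and within replicate 2 it was -3.02 points. How finely a domain was cut into islands varied more between libraries than between oxygen levels, with 6662 and 7034 islands in the domains at 4% oxygen, against 9908 and 4649 at 20% oxygen. A single island of 50 kb or more lay in 922 and 887 of the domains in the 4% libraries, against 630 and 1201 domains in the 20% libraries. In 487 domains (24.8%) no library had an island of that length, so that these reached it only by merging over libraries, and in 460 domains (23.5%) every library had one.

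**Figure D1:**
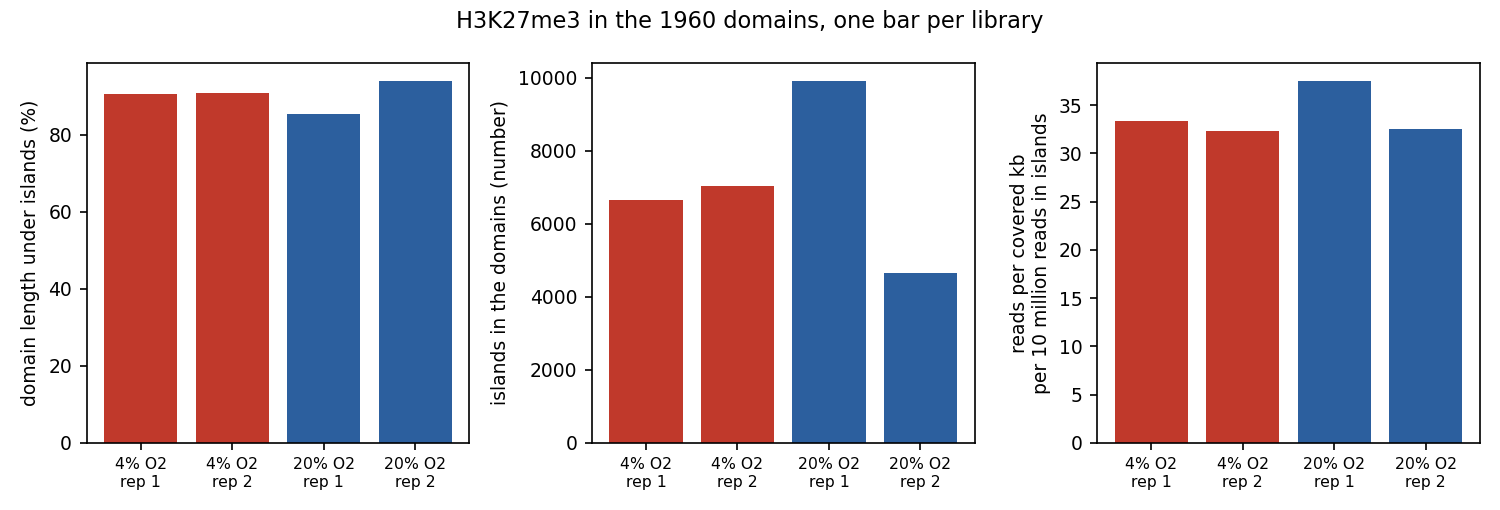
Covered share of the summed domain length (%), number of islands in the domains, and reads per covered kb scaled to 10000000 reads in islands, with a bar for each H3K27me3 library and 4% oxygen in red, left of 20% oxygen in blue. The 20% replicate 1 library has the lowest covered share (85.4%), the most islands (9908) and the highest scaled density (37.5), and the 20% replicate 2 library the highest share and the fewest islands.

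The domains held 59.1% and 57.6% of all reads in islands of chromosomes 1 to 19 in the 4% libraries, against 62.7% and 59.9% in the 20% libraries. Both 4% libraries lay below both 20% libraries, and the exact permutation p was 0.33, the smallest this design can give. Read density is given as reads per kb of island inside the domain, and as the same value scaled to 10000000 reads in islands. Unscaled it was 26.5 and 31.7 reads per covered kb in the 4% libraries, against 32.3 and 38.9 in the 20% libraries. Scaled it was 33.3 and 32.3 at 4% oxygen, against 37.5 and 32.6 at 20% oxygen, a mean difference of -2.19 (exact permutation p = 0.667), which turned to 0.277 without 20% replicate 1. The median domain had a scaled density of 29.5 and 29.1 in the 4% libraries, against 33.2 and 28.9 in the 20% libraries. The median smaller region had 22.9 and 23.5, against 26.2 and 22.02. Longer domains were denser, with medians over the 4 libraries of 27.9 scaled reads per covered kb at 50 to 75 kb and 35.7 at 200 kb or more.

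The longest domain, on chromosome 2 (chr2:92485601-93069600, 584.0 kb), held Chst1, which encodes a carbohydrate sulfotransferase, Syt13, of the synaptotagmin family, and Prdm11. Islands covered 97.2% and 98.5% of it in the 4% libraries, against 94.7% and 98.4% in the 20% libraries. The next was a 471.0 kb domain on chromosome 9 that overlapped Grik4, which encodes a kainate glutamate receptor subunit, and Tbcel. A 443.8 kb domain on chromosome 4 lay within Camta1, a calmodulin-binding transcription activator gene, and was the most uneven of the 8 longest, with 88.7% and 98.1% covered at 4% oxygen, against 77.1% and 96.6% at 20% oxygen. A 409.4 kb domain on chromosome 8 held Irf8, a transcription factor gene of myeloid and B cells, and Foxf1, a forkhead gene of the mesoderm. Others lay over the keratin cluster of chromosome 11 (442.4 kb), over no protein-coding gene on chromosome 15 (417.2 kb), over Arhgap29 and Abca4 on chromosome 3 (409.2 kb) and over Hydin, a gene of motile cilia, on chromosome 8 (387.0 kb).

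Gene content varied widely. In all, 971 of 20665 protein-coding genes lay wholly inside a domain (4.70%) and 1847 overlapped one (8.94%). A gene lay inside 504 domains, 383 further domains lay within a single gene, 458 only overlapped the end of a gene, and 615 domains (31.4%) touched no protein-coding gene. Domains with a gene inside had a median length of 94.1 kb and a median scaled density of 34.4 reads per covered kb, against 71.4 kb and 28.4 for those that touched no gene. Of other transcripts, 1343 of 12408 lncRNA genes (10.8%) and 76 of 1136 miRNA genes (6.69%) lay inside.

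By gene family, keratins and keratin-associated proteins stood at the top, with 74 of 109 genes wholly inside 12 domains (67.9%). The type II keratin cluster of chromosome 15, which encodes the basic keratins of epithelia, had 25 of its 26 genes inside 4 domains, and Krt78 was the exception. Islands covered 96.8% and 95.9% of that cluster in the 4% libraries, against 96.9% and 96.6% in the 20% libraries. The cluster of chromosome 11, with the type I keratins and hair keratin-associated proteins, had 41 of 50 genes inside 3 domains, and islands covered 87.7% and 74.9% of it at 4% oxygen, against 85.6% and 79.6% at 20% oxygen. In both clusters H3K36me3 covered 0 bases in each library. The 442.4 kb domain of the chromosome 11 cluster held 28 genes, more than any other domain, from Krt24 to Krtap4-6.

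Families of developmental regulators and signals differed among themselves. Of basic helix-loop-helix lineage genes 13 of 45 lay inside (28.9%), and Mesp1 and Mesp2, which act in early mesoderm and somites, shared a domain of 64.4 kb on chromosome 7. Of Hox genes 10 of 39 lay inside (25.6%), the largest group being Hoxb4, Hoxb5 and Hoxb6 in a domain of 59.2 kb. The Hoxb cluster was covered at 93.4% and 82.1% at 4% oxygen, against 94.5% and 95.4% at 20% oxygen, but was split among 3 domains. The Hoxa cluster held no domain, although islands covered 59.4% and 71.1% of it in the 4% libraries, against 68.5% and 91.6% in the 20% libraries. In the Hoxc cluster, islands covered only 38.6% and 38.4% at 4% oxygen, against 38.2% and 39.3% at 20% oxygen, and Hoxc11 to Hoxc13 lay inside a domain. Of Wnt ligands 4 of 19 lay inside, Wnt3a and Wnt9a in the same domain of 107.6 kb on chromosome 11 and Wnt10a in another. Of fibroblast growth factors 3 of 20 lay inside, with Fgf3 and Fgf4 in a domain of 159.6 kb on chromosome 7. Other homeobox genes had 11 of 129 inside (8.53%), BMP and GDF ligands 2 of 24 (8.33%) and forkhead genes 2 of 41 (4.88%), the last of these near the 4.70% of all protein-coding genes.

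Of chemokines 8 of 39 lay inside (20.5%), and a domain of 110.0 kb on chromosome 11 held Ccl3, Ccl4, Ccl6 and Ccl9, which attract leukocytes. Of cytochromes P450 11 of 93 lay inside (11.8%), 4 of them Cyp2d genes in a domain of 106.2 kb on chromosome 15. Potassium channel genes had 9 of 91 members inside (9.89%) and solute carriers 25 of 351 (7.12%). Olfactory receptors had 55 of 1104 inside (4.98%), near the 4.25% of genes in none of the listed families, and vomeronasal receptors 1 of 352 (0.284%). No member lay inside among 57 clustered protocadherins, 360 zinc finger genes named Zfp, 66 histone genes, 77 ribosomal protein genes and 78 respiratory chain subunits. Sox genes (18), T-box genes (16), GATA genes (5), Zic and Gli genes (10), serpins (62) and classical and other cadherins (23) also had no member wholly inside, although 3 Sox genes, 1 T-box gene, 2 Zic and Gli genes, 1 serpin and 5 cadherin genes overlapped a domain, as did 3 Zfp genes. These counts describe genes that neighbour each other in the genome, so members of a cluster are not separate observations.

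**Figure D2:**
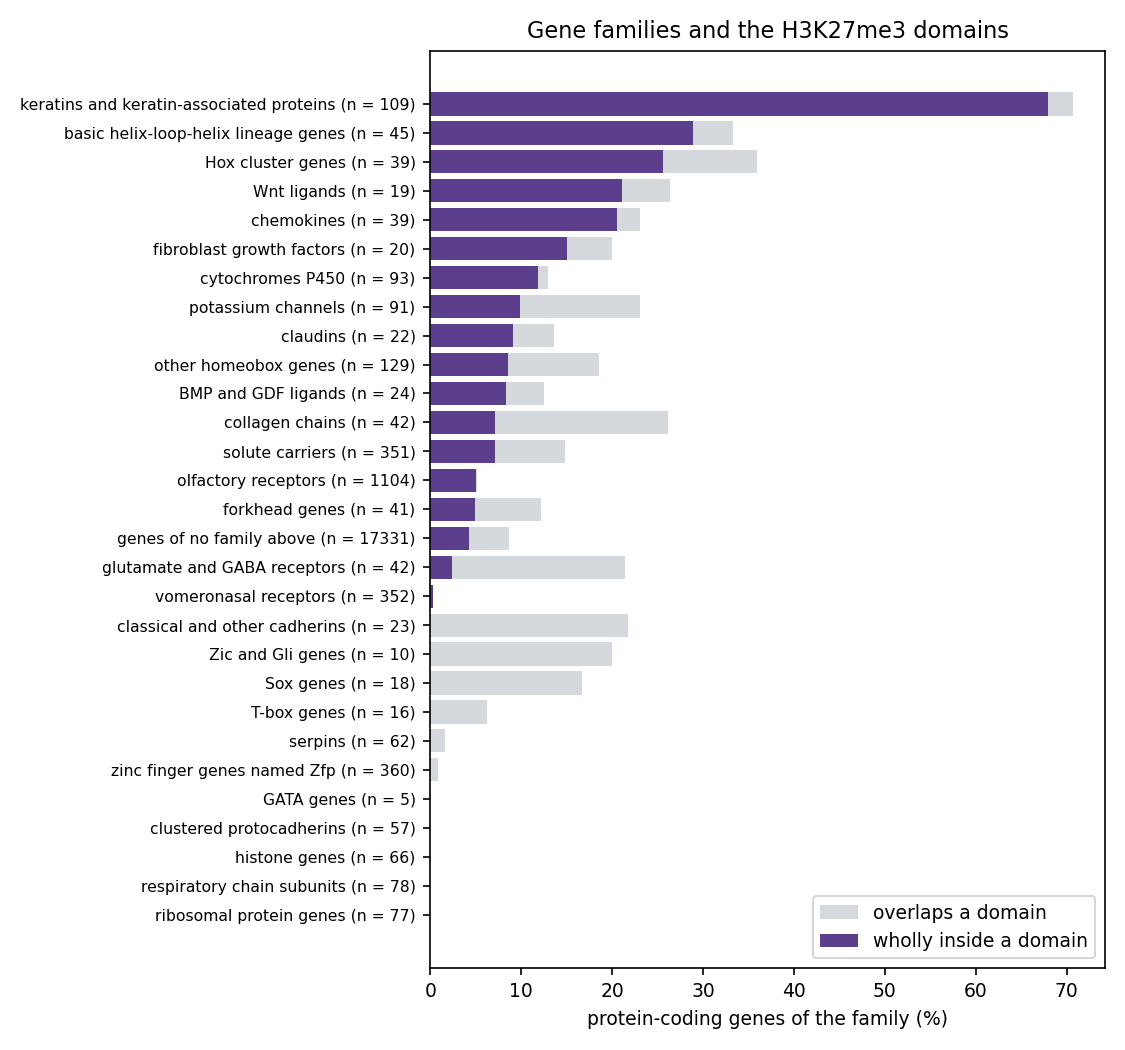
Share of the protein-coding genes of each family that lie wholly inside a domain (purple) or overlap one (grey), in percent, with the number of genes in parentheses. Keratins stand at 67.9% inside, and ribosomal protein, respiratory chain, histone and clustered protocadherin genes at 0.

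Of the 28 domains with 5 or more genes inside, some held further gene clusters, and those named here were picked after their values were seen. Others held genes of no single cluster, such as Epha2, Fam131c and Hspb7 in a domain of 171.8 kb on chromosome 4. A domain of 218.0 kb on chromosome 2 held 13 genes, Wfdc2 and Eppin among them, which encode whey acidic protein and Kunitz type protease inhibitors of the reproductive tract. A domain of 145.6 kb on chromosome 10 held 11 trace amine-associated receptor genes, and 1 of 135.6 kb on chromosome 2 held 8 beta-defensin genes. The T cell receptor subunit genes Cd3g, Cd3d and Cd3e shared a domain of 193.0 kb on chromosome 9 with the sodium channel subunit genes Scn2b and Scn4b. The skeletal myosin heavy chain genes Myh1, Myh2, Myh4, Myh8 and Myh13 filled a domain of 321.8 kb on chromosome 11, covered at 89.7% and 87.4% in the 4% libraries, against 91.9% and 99.1% in the 20% libraries. The cardiac genes Myh6 and Myh7 lay in a domain of 99 kb on chromosome 14. The lymphocyte GTPase genes of the Gimap cluster lay in 112.4 kb on chromosome 6.

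The domains were spread unevenly over the chromosomes. Chromosome 15 had 122 domains per 100 Mb of its gene-bearing span and chromosome 11 had 118, against 40.3 on chromosome 4 and 48 on chromosome 18. The 6 domains with the highest mean scaled density all lay on chromosome 15, over Tcf20, Csf2rb with Ncf4 and Pvalb, Cacng2, Rhpn1, Apol10b with Apol11b, and Eppk1. The densest lay within Tcf20, a transcriptional coregulator gene, with 83.4 and 82.8 scaled reads per covered kb at 4% oxygen, against 80.5 and 83.3 at 20% oxygen. The next held Pvalb, which encodes the calcium buffer parvalbumin, with 83.0 and 73.0 at 4% oxygen, against 86.6 and 73.9 at 20% oxygen. The domain over Cacng2, which encodes the AMPA receptor partner stargazin, had 76.9 and 68.7 at 4% oxygen, against 88.0 and 74.2 at 20% oxygen. Of the 50 densest domains 22 lay on chromosome 15, which held 127 of all 1960 domains (6.48%). In 5 Mb windows, the stretch from 75 to 80 Mb of chromosome 15 had 2.30 times the median island density for H3K27me3, rank 1 of 256 windows, and 1.34 times the median for H3K36me3, rank 15. The part of DNA copy number in these densities was not tested, and the input libraries were not analysed here. The densest domain elsewhere held Lrrc52 on chromosome 1, with 59.8 and 57.9 scaled reads per covered kb at 4% oxygen, against 71.6 and 65.2 at 20% oxygen.

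The 4 other marks were scarce inside the domains, as they were in the smaller regions shared by all 4 libraries. H3K36me3 covered 0.124% and 0.145% of their length in the 4% libraries, against 0.0930% and 0.118% in the 20% libraries. In the sequence beside the domains that lay in no H3K27me3 region, it covered 26.2% and 26.7% at 4% oxygen, against 27.8% and 30.1% at 20% oxygen. H3K4me3 covered 0.262% and 0.415% of the domains at 4% oxygen, against 0.365% and 0.407% at 20% oxygen, and H3K27ac 0.0764% and 0.151%, against 0.0650% and 0.125%. For H3K36me3, H3K4me3 and H3K27ac the differences between oxygen levels were 0.0285, -0.0475 and 0.0187 percentage points, with exact permutation p-values of 0.33, 1 and 0.667. The H3K4me3 difference turned to 0.0291 without 4% replicate 1, and the H3K27ac difference to -0.0186 without 4% replicate 2 and to -0.0113 without 20% replicate 1. In the smaller regions H3K4me3 covered 0.385% and 0.573% at 4% oxygen, against 0.539% and 0.555% at 20% oxygen, more than in the domains in each library. H3K27ac covered 0.0629% and 0.118% of the smaller regions, against 0.0458% and 0.0909%. H3K36me3 covered 0.0469% and 0.0986% of them, against 0.0301% and 0.100%.

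Among these 4 marks, H3K4me1 had the largest difference in share between oxygen levels. It covered 0.0989% and 0.129% of the domain length at 4% oxygen, against 0.471% and 0.392% at 20% oxygen, so both 4% libraries lay below both 20% libraries. The difference was -0.318 percentage points, and the exact permutation p of 0.33 is the smallest the design allows. H3K4me1 was present in both 20% libraries and neither 4% library in 104 domains (5.31%), and in the opposite pattern in 1 domain. The background over all 9830 regions shared by the 4 libraries, most of them shorter, was 2.32% and 0.0102%. In the smaller regions H3K4me1 covered 0.0690% and 0.0866% at 4% oxygen, against 0.411% and 0.290% at 20% oxygen. Over the whole of chromosomes 1 to 19, domains included, the order was the same, with 60.4 and 63.2 Mb under H3K4me1 peaks at 4% oxygen, against 104.6 and 81.0 Mb at 20% oxygen. The part of peak calling in this difference was not tested. H3K4me3 was in both 4% libraries and neither 20% library in 4 domains (background 0.0916%), and the opposite in 16 (background 0.478%). H3K27ac was in both 4% libraries alone in 11 domains (background 0.295%) and in both 20% libraries alone in 3 (background 0.0814%). For H3K36me3 these counts were 1 (background 0.0203%) and 0 (background 0%).

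At the edges of the domains the other marks changed within a few kb. H3K4me3 covered 5.82% of the bases in the first 2.5 kb outside an edge, as the mean of 4 libraries with a range of 5.37% to 6.21%. It covered 2.29% at 48.75 kb outside, 1.69% at 8.75 kb outside and 0.514% at 8.75 kb inside. H3K27ac stood at 2.65% just outside the edge, with 1.22% at 8.75 kb outside and 0.143% at 8.75 kb inside. Its level at 48.75 kb outside was 2.01%, closer to that at the edge. H3K36me3 had no such summit, with 12.1% at 48.75 kb outside, 7.56% at 8.75 kb outside, 1.46% just outside and 0.189% just inside. H3K27me3 itself covered 50.1% of the bases at 48.75 kb outside and 14.2% just outside, where the rule sets a gap by construction, so that the domains lay in surroundings that carried other islands. H3K4me1 differed by oxygen level here too, with 0.682% and 0.777% just outside the edge in the 4% libraries, against 3.14% and 2.03% in the 20% libraries. For H3K4me3 the 4% libraries had 5.37% and 5.95% there, against 6.21% and 5.76% in the 20% libraries, and the groups overlapped.

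**Figure D3:**
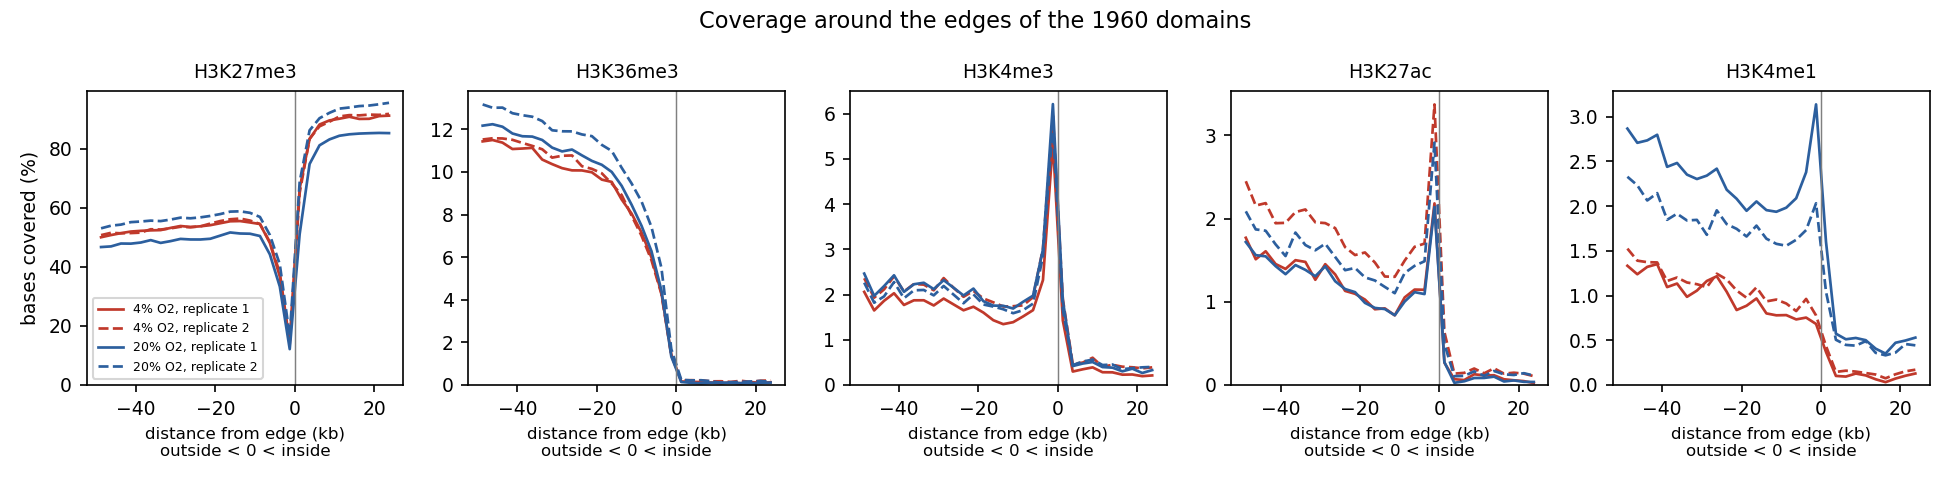
Share of bases covered by each mark (%) in 2.5 kb bins against the distance from the domain edges (kb), over both edges of the 1960 domains, with 4% libraries in red and 20% libraries in blue (replicate 1 solid, replicate 2 dashed); each panel has its own scale. H3K4me3 and H3K27ac have a narrow summit just outside the edge, H3K36me3 falls away towards it, and H3K4me1 is lower in both 4% libraries than in both 20% libraries.

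H3K4me3 was present somewhere in 442 domains (22.6%) in all 4 libraries and in 1174 domains in no library. H3K27ac was present in all 4 libraries in 80 domains (4.08%), H3K4me1 in 112 (5.71%) and H3K36me3 in 8 (0.408%). The smaller regions, which offer less length for a peak, had H3K4me3 in all 4 libraries in 9.03%. For H3K27ac, H3K4me1 and H3K36me3 their shares were 1.07%, 1.19% and 0.0508%. The bases under H3K4me3 inside domains lay in an H3K27me3 island of the same oxygen level and replicate for 85.6% and 70.3% at 4% oxygen, against 50.9% and 65.4% at 20% oxygen. Islands covered 85.4% to 94.0% of the domains as a whole, a higher share than that of the H3K4me3 bases in each library. The highest H3K4me3 share was in the domain of Wnt6 and Wnt10a on chromosome 1 (55.8 kb), with 4.85% and 17.8% at 4% oxygen, against 9.59% and 15.9% at 20% oxygen. That domain also had the highest H3K4me1 share, with 5.87% and 14.4% at 4% oxygen, against 38.1% and 27.03% at 20% oxygen. Next in H3K4me3 were the domains over Slc7a4 and P2rx6, which encodes a purinergic receptor subunit, over Nkx6-3 and Ank1, and over Creg2 and Rfx8. The 5 longest domains with no H3K4me3 in any library included 2 free of genes, on chromosomes 15 and 13, 1 over Nps and Dock1, 1 over Gabrp and Kcnip1, and 1 over Prdm16, a zinc finger regulator gene.

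A single domain, 53.2 kb within Sntg2 on chromosome 12, had H3K36me3 over most of its length. H3K36me3 covered 91.0% and 88.3% of it at 4% oxygen, against 93.2% and 96.6% at 20% oxygen, while H3K27me3 covered 85.3% and 71.4%, against 62.8% and 87.2%. In each library the shares of these 2 marks are too large for them to lie on separate bases. A domain of 344.2 kb over Tns1, Cxcr1 and Cxcr2 was covered by H3K27me3 at 96.6% and 2.79% at 4% oxygen, against 97.8% and 96.6% at 20% oxygen. It had the highest H3K27ac share of all domains, 12.04% and 15.5% at 4% oxygen, against 9.99% and 11.04% at 20% oxygen. The 4% replicate 2 library thus had the lowest H3K27me3 share and the highest H3K27ac share there.

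Of 16457 promoters with a sequence, 1053 started in a domain. For a promoter to carry a mark, 200 bp or more within 500 bp of its start had to lie in peaks or islands. The promoters in domains had a median of 6 CpG in 300 bp, against 15 for the 15404 promoters outside, and 22.03% of them had 15 CpG or more, against 50.6% outside. H3K4me3 was present in all 4 libraries at 80 of the promoters in domains (7.60%), against 57.1% of those outside. Among promoters with 15 CpG or more the shares were 19.8% of 232 in domains, against 87.4% of 7802 outside. Among promoters with fewer CpG they were 4.14% of 821, against 25.9% of 7602. Within the domains, the 80 promoters with H3K4me3 had a median of 17 CpG and 41.3% of them carried H3K27me3 in all 4 libraries, while the 932 with H3K4me3 in no library had a median of 5 CpG and 79.8% carried H3K27me3. H3K27ac was present in all 4 libraries at 7 of the 1053 promoters (0.665%), against 44.9% outside. The 960 promoters in the smaller regions shared by all 4 libraries had like values, with a median of 4 CpG, 15.7% with 15 CpG or more, H3K4me3 in all 4 libraries at 8.85% and H3K27ac at 0.521%.

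CpG count and H3K4me3 did not go together in every family. The 57 keratin promoters in domains had a median of 4 CpG, the 54 olfactory receptor promoters 2 and the 10 cytochrome P450 promoters 2, and among all these promoters 1, of an olfactory receptor, had H3K4me3 in all 4 libraries. The 4 Wnt promoters had a median of 43.5 CpG, and 2 of them had H3K4me3 in all 4 libraries. Those were Wnt6, with 31 CpG, and Wnt9a, with 58 CpG, and both also carried H3K27me3 in all 4 libraries. Wnt3a, whose sequence is given above, shared its domain with Wnt9a and had H3K27me3 alone. The 12 promoters of other homeobox genes had a median of 16 CpG and the 4 of Hox genes 21.5, and none of either had H3K4me3 in all 4 libraries. Potassium channel and chemokine promoters both had a median of 7 CpG, and H3K4me3 was present in all 4 libraries at 2 of 11 and at 1 of 7 of them. The 12 of basic helix-loop-helix lineage genes had a median of 9.5 CpG and 1 had H3K4me3. Irf8, with 38 CpG, had H3K27me3 in all 4 libraries and no H3K4me3.

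**Figure D4:**
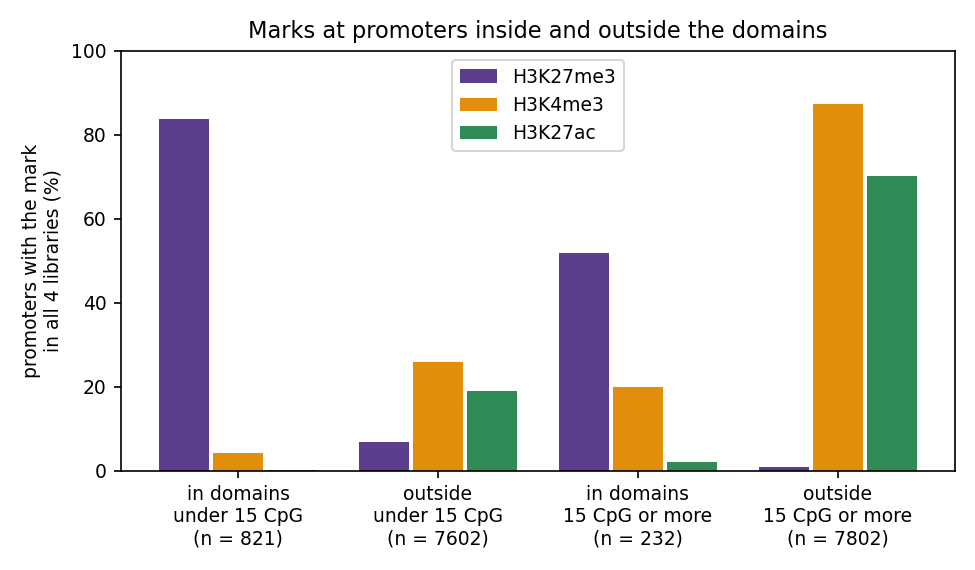
Share of promoters (%) with H3K27me3, H3K4me3 or H3K27ac in all 4 libraries, for promoters in domains and outside them and for 2 classes of CpG count in 300 bp. At 15 CpG or more, H3K4me3 stands at 19.8% in domains and 87.4% outside; below that, at 4.14% and 25.9%.

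No domain passed the threshold for a difference in read density between 4% and 20% oxygen in the edgeR quasi-likelihood test with Benjamini-Hochberg adjustment, fitted without pairing the libraries. The test compared reads per covered kb in all 9830 regions shared by the libraries, and 0 were called at an adjusted p under 0.05, a background of 0%. At an unadjusted p under 0.05 there were 1014 regions (10.3%) and 145 domains, of which 69 were higher and 76 lower at 4% oxygen, and DESeq2 also called 0, with 531 at an unadjusted p under 0.05. Without 4% replicate 1, 4% replicate 2, 20% replicate 1 or 20% replicate 2 in turn, 1, 3, 5 and 0 domains were called, among 37, 61, 44 and 6 regions. The single library left in its group is then assumed to vary like the pair in the other group. The titles of the input libraries carry the same number at both oxygen levels, a different number for each replicate, but they do not state a pairing. With the replicate number as a block, edgeR instead called 223 of 1960 domains. That fit and its limits are given in the closing section.

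Differences in density were small and leaned towards lower values at 4% oxygen. The fitted log2 ratio of 4% over 20% oxygen had a median of -0.05 over the domains, with quartiles of -0.14 and 0.06 and a range of -0.50 to 0.52, against a median of 0.00 over all regions tested. The ratio was above 0 in 37.7% of domains, and without 20% replicate 2 this share was 46.5% and the median -0.01. Within replicate 1 the median ratio of the domains was -0.01 and within replicate 2 it was -0.09, while the median over all regions was 0.00 in both. Across the 1960 domains the ratios of the 2 replicates, which share no library, had a Pearson correlation of 0.682, and across all 9830 regions 0.417. Domains are not independent replicates, and the correlation is a description. The densities of both 4% libraries lay below those of both 20% libraries in 546 domains (27.9%), and above them in 288 domains (14.7%). The background over all regions was 20.0% below and 20.8% above. Reads per covered kb depend on how much of a domain was called, and the covered share was higher in both 4% libraries in 326 domains (16.6%, background 18.9%) and lower in both in 169 domains (8.62%, background 9.45%).

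The ratio varied with H3K4me3, a mark the rule did not use. The 442 domains with H3K4me3 in all 4 libraries had a median log2 ratio of 0.02, with 0.08 in replicate 1 and -0.04 in replicate 2, and 112 of them (25.3%) were higher and 73 (16.5%) lower without overlap between the groups. The 1174 domains with no H3K4me3 had a median of -0.08, with -0.05 in replicate 1 and -0.11 in replicate 2, and 108 (9.20%) were higher and 407 (34.7%) lower. Over all 9830 regions 20.8% were higher and 20.0% lower without overlap, and over all 1960 domains 14.7% and 27.9%. In both replicates the median with H3K4me3 was above the median without it. The smaller regions showed the same order, with a median of 0.20 for the 711 with H3K4me3 in all 4 libraries and -0.01 for the 6618 with none. Domains with H3K4me3 were also longer and denser, with medians of 92.6 kb and 36.3 scaled reads per covered kb, against 72.6 kb and 27.9 for those without, and the part of length and density in the ratio was not tested. By gene content, the 383 domains that lay within a single gene had the lowest median ratio, -0.10, against -0.02 for domains with a gene inside and -0.03 for domains that touched no gene.

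**Figure D5:**
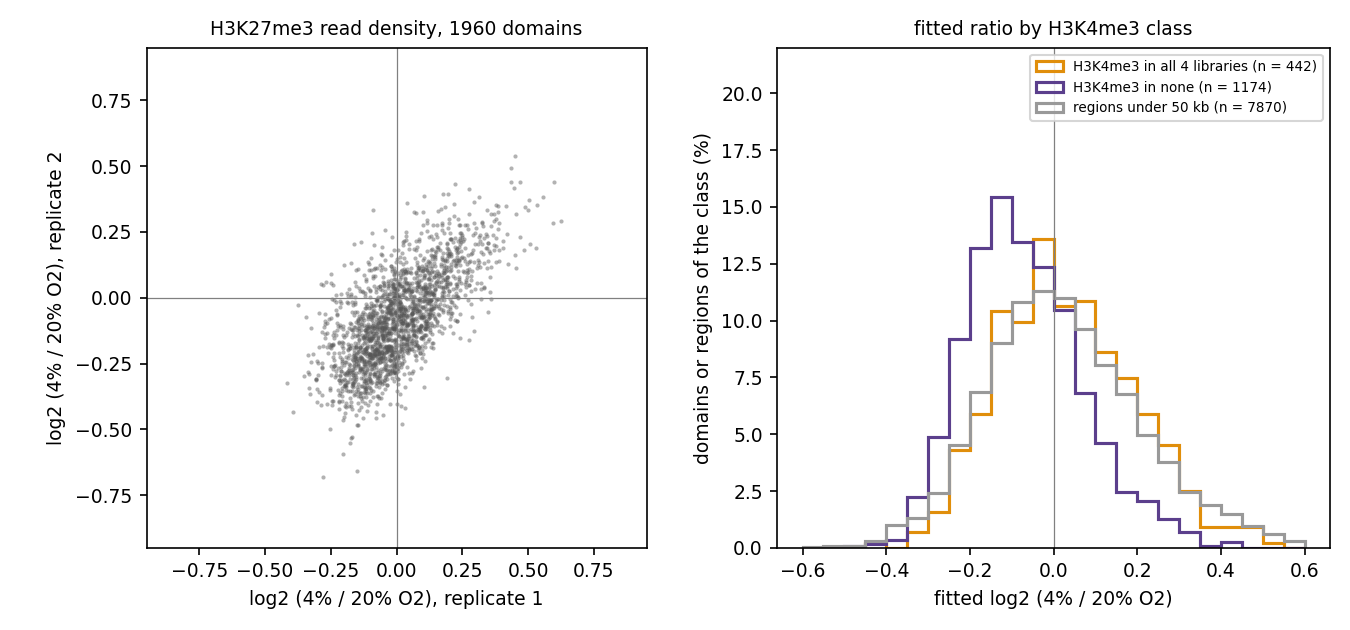
Left, log2 ratio of H3K27me3 read density at 4% over 20% oxygen in replicate 1 (x axis) and replicate 2 (y axis), with a point for each of the 1960 domains. Right, share (%) of domains with H3K4me3 in all 4 libraries (442), of domains with none (1174) and of regions under 50 kb (7870) by fitted log2 ratio; domains without H3K4me3 lie to the left of the others, with a median of -0.08.

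The domains with the smallest p did not pass the adjusted threshold, and their values are given as a description. They were taken only from domains whose ratio had the same sign in both replicates, so that this agreement was required. Normalised reads per covered kb over Sectm1b and Cd7, genes of leukocyte surface or secreted proteins on chromosome 11, were 49.9 and 42.5 at 4% oxygen, against 33.0 and 31.3 at 20% oxygen. Both 4% libraries were higher, and the log2 ratio was 0.52 ± 0.12 (SE), with an adjusted p of 0.163 in edgeR's quasi-likelihood test. The 4 next higher ones lay over Habp2 and Nrap (0.47), over Smarcd3, a chromatin remodeller subunit gene (0.44), over the agouti gene a (0.46) and over no protein-coding gene on chromosome 12 (0.45). In the domain over Smarcd3 the values were 41.4 and 40.5 at 4% oxygen, against 29.2 and 31.3 at 20% oxygen. On the lower side, Prdm16 had 29.3 and 29.7 at 4% oxygen, against 35.6 and 47.6 at 20% oxygen, a log2 ratio of -0.50 ± 0.15 with an adjusted p of 0.235. Gli2, a transcription factor gene of Hedgehog signalling, had 19.1 and 21.3 at 4% oxygen, against 25.5 and 26.6 at 20% oxygen, while its covered share ran from 33.0% to 98.5% over the libraries. The others lay within Nedd4l (-0.41), a ubiquitin ligase gene, and over no protein-coding gene on chromosomes 1 (-0.35) and 15 (-0.35). H3K4me3 covered on average 0.303% to 4.11% of the 5 higher domains and 0% of the 5 lower ones. Among all domains, 59.9% had no H3K4me3 in any library, so that a share of 0% was common.

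The domains of the gene families followed neither direction as a group. The Wnt3a and Wnt9a domain had 65.5 and 57.7 scaled reads per covered kb at 4% oxygen, against 56.4 and 49.6 at 20% oxygen, with an adjusted p of 0.492 in edgeR's test. The Hoxb4 to Hoxb6 domain had 30.7 and 25.004 at 4% oxygen, against 38.0 and 31.6 at 20% oxygen, with an adjusted p of 0.493 in edgeR's test. The first was higher in both 4% libraries and the second lower in both, without overlap between the groups, and neither passed the threshold. The 442.4 kb keratin domain had 40.7 and 32.0 at 4% oxygen, against 48.2 and 35.1 at 20% oxygen. The Mesp1 and Mesp2 domain had 41.1 and 31.9 at 4% oxygen, against 36.6 and 26.5 at 20% oxygen. In each of these pairs replicate 1 was higher than replicate 2 within both oxygen levels. The 8 longest domains had log2 ratios between -0.19 and -0.01, and the smallest of their adjusted p-values in edgeR's test was 0.658.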

How the data were processed

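The authors sequenced ThruPLEX libraries of chromatin from N1E115 cells; BWA, Picard, SICER and MACS2 and the build mm10 are named in the submitters' processing notes. The deposited H3K27me3 and H3K36me3 files list islands with a read count in each, and reading that unlabelled column as a count rests on its whole-number values. The deposited H3K4me3, H3K27ac and H3K4me1 files list peaks per library with a −log10 score. The replicate 2 intervals of those 3 marks came from a further deposited list and were matched by their names and scores. Islands are multiples of 200 bases, so a domain's edges are no finer than that, and the input libraries were not used here.

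H3K27me3 islands of 4 libraries were merged where they overlapped or touched, and regions of at least 50 kb with an island in each were kept. These lengths come from H3K27me3 itself, so lengths, coverage and densities of H3K27me3 are descriptions. The members and gene lists were chosen with earlier results of these data known. Counts of the 9830 regions were fitted with edgeR 4.0.16 (quasi-likelihood, covered length as an offset, Benjamini-Hochberg threshold 0.05) in R 4.3.3. DESeq2 1.42.0 was the alternative. The edgeR fit was also run on simulated data, whose libraries were unpaired and whose changes were larger than any fitted here. How well smaller differences are found was not tested. Single totals were compared with exact permutation tests. Named domains were the longest, the densest and those with the most members of a family. Those with the smallest p in each direction were also named, among domains whose ratio had the same sign in both replicates. So were those with the highest and lowest H3K4me3 share, and any others were named after their values were seen. A domain that this rule names is not reported here. Gene positions and promoter sequences came from the RefSeq tables for GRCm38.p6, the same assembly as mm10. Other thresholds, a wider merging gap, low-coverage exclusion and leaving out each library were tried as alternatives. Tables used Python 3.11.15 with pandas 2.3.3 and numpy 2.4.6.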

Additional observations from a re-analysis of the deposited data

Results flagged for a closer look

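Chromosome X was outside the rule, which covers chromosomes 1 to 19, and carried H3K27me3 regions of the same size, which is why it is listed here. In it, 87 of 1557 merged regions were 50 kb or longer with an island in all 4 libraries, with a summed length of 7.51 Mb. Islands covered 99.1% and 66.9% of that length in the 4% libraries, against 82.3% and 74.5% in the 20% libraries. Reads per covered kb, scaled to 10000000 reads in islands, were 35.1 and 24.2 at 4% oxygen, against 31.0 and 23.1 at 20% oxygen. Replicate 1 was higher than replicate 2 at both oxygen levels.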

How the results depend on the processing

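Of 89 alternative values of 11 results, 72 stayed within the limits set for them and 17 moved further. For differences between oxygen levels the limit was the pooled SD between replicates, which leaving out a library could not exceed by construction. The count filter removed no region, so that leaving it out changed nothing. The number of values that stayed is therefore no measure of stability. Changes of sign were not counted, and some differences changed sign within these limits, as the ranges below show. A minimum length of 100 kb left 666 domains with 521 genes inside, counting any overlap gave 1847 genes, and the H3K36me3 difference became 0.0460 percentage points at 100 kb and 0.0112 without the islands of fewest reads per kb. At a peak score of 5 or more the H3K4me1 difference was -0.264. Leaving out each library gave 6 to 61 called regions and 0 to 5 called domains. The difference in scaled density then ran from -4.66 to 0.277 and that in covered share from -3.23 to 5.35.

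Same-numbered libraries deviated together, with a correlation of 0.415 over the 9830 regions and 0.744 over the 1960 domains in density, and 0.655 over the domains in coverage, but the labels do not say that a number marks a shared culture and there are only 2 pairs, so the pairing is a hint from the data. With the replicate number as a block, edgeR called 1100 of 9830 regions (765 higher and 335 lower at 4% oxygen) and 223 of 1960 domains (96 higher and 127 lower). In the fit restricted to regions covered at 90% or more, without the offset, the block gave 476 of 1104 regions (247 higher and 229 lower) and 293 of 625 domains (115 higher and 178 lower), and 0 without the block, where 185 regions had an unadjusted p under 0.05. Under the block the differences in covered share (1.06) and scaled density (-2.19) were the same by construction. With 2 libraries per group no exact p below 0.33 can be had.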
